A study of Homo sapiens with 12 samples.

Results

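The genes described here are 8 transcription factors of the myeloid lineage: SPI1, SPIB, CEBPA, CEBPB, MAF, KLF4, RUNX1 and EGR2. They were chosen by gene symbol from an RNA-seq table of 20307 genes, and all 8 had a row. The table holds 12 libraries in 4 groups of 3, from established human cell lines. THP-1, a line of monocytic leukaemia cells, becomes macrophage-like under the phorbol ester PMA. THP-1 cells with the genotype label WT received PMA for 24 h and were then kept for 48 h with H1299 material. The sources name this both a co-culture and a treatment with supernatant, and contact between the cells is therefore uncertain. One THP-1 group was exposed to H1299 cells labelled DCBLD2 and the other to H1299 cells labelled control. H1299, from a non-small-cell lung cancer, was sequenced on its own in a group with the genotype label DCBLD2 overexpression and a group with the genotype label WT. No THP-1 library without PMA or without H1299 exposure was analysed here. The labels give no construct, clone or culture for a replicate, and the spread that the p-values rest on may be technical.

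Myeloid identity is set by a small number of DNA-binding proteins that act together. PU.1, the product of SPI1, opens the regulatory regions of macrophage genes, and C/EBP proteins bind beside it; forced expression of such a pair can turn other blood cells into macrophages. RUNX1 prepares many of the same regions earlier in blood development. MAF, KLF4 and EGR2 are known for shaping the state of the mature macrophage, and SPIB is a close relative of PU.1 that is better known from B cells and plasmacytoid dendritic cells.

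DCBLD2, the membrane protein named by the labels, went against them in H1299. It measured 105, 98.2 and 92.5 TPM (a transcript level scaled by length and depth) in the libraries labelled DCBLD2, against 247, 148 and 196 TPM in those labelled control. Its log2 fold change was -1.27 ± 0.17 (SE, edgeR's quasi-likelihood test, adjusted p = 0.00284). Groups are therefore named labelled DCBLD2 and labelled control, and every fold change is labelled DCBLD2 over labelled control. In THP-1, whose labels name the exposure, DCBLD2 was at 6.47 TPM in labelled DCBLD2 and 11.9 TPM in labelled control. That is lower as well, with a log2 fold change of -0.81 ± 0.052 (SE, edgeR, adjusted p = 3.21e-13). Directions in both lines, and their comparison, hold for the labels as given. With only the labels of the H1299 libraries exchanged, every H1299 fold change would turn its sign. If the H1299 material given to THP-1 was exchanged as well, the THP-1 fold changes would turn too. Libraries held 18606739 to 26787853 estimated reads in THP-1 and 14578887 to 23388187 in H1299. In THP-1, mitochondrial genes took 2.46% to 2.58% of reads in the labelled DCBLD2 libraries, against 3.48% to 3.51% in the labelled control libraries, and 86 ribosomal protein genes took 5.52% to 5.82%, against 3.99% to 4.02%. The THP-1 groups thus differ in RNA makeup as well, and the part of this in any member's change was not tested. All 14 myeloid markers reached a mean of 1 TPM in both THP-1 groups, with a summed level of 12510 to 12770 TPM in labelled DCBLD2 and 10530 to 10600 TPM in labelled control. Of 12 carcinoma markers, 6 reached a mean of 1 TPM in THP-1 labelled DCBLD2 and 4 in THP-1 labelled control. Their summed level was 30.9 to 31.4 TPM in labelled DCBLD2, against 25.1 to 26.6 TPM in labelled control. Most of it was MET, at 20.2 TPM in labelled DCBLD2 and 18.2 TPM in labelled control, beside 22.8 and 22.3 TPM in H1299. EPCAM and KRT19 were at 0 in all THP-1 libraries, but their means were under 1 TPM in both H1299 groups too. In H1299 the 12 carcinoma markers summed to 1340 to 1761 TPM in labelled DCBLD2 and 2042 to 2180 TPM in labelled control.

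In THP-1, most of the 8 factors changed, in both directions. SPI1 and KLF4 rose, SPIB, MAF, EGR2, CEBPA and RUNX1 fell, and CEBPB did not pass the test. That is 7 of 8 called at an adjusted p under 0.05, where 68.1% of the 13120 genes tested were called (34.5% higher and 33.6% lower). The count of called members is therefore close to the background. The median log2 fold change of the 8 was -0.34, beside 0.00 for all genes tested. The TPM of the groups did not overlap for 7 of the 8, against 64.9% of tested genes. In size, the fall of SPIB exceeded the change of 99.5% of the genes tested, that of MAF 90.3% and that of EGR2 87.7%. The changes of SPI1 and CEBPA stood at 71.9% and 66.2%, those of KLF4 and RUNX1 at 49.5% and 41.1%, and that of CEBPB at 2.23%. As bulk RNA was measured, a change in the level per cell and a change in the share of cells that express a gene cannot be told apart.

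**Figure D1:**
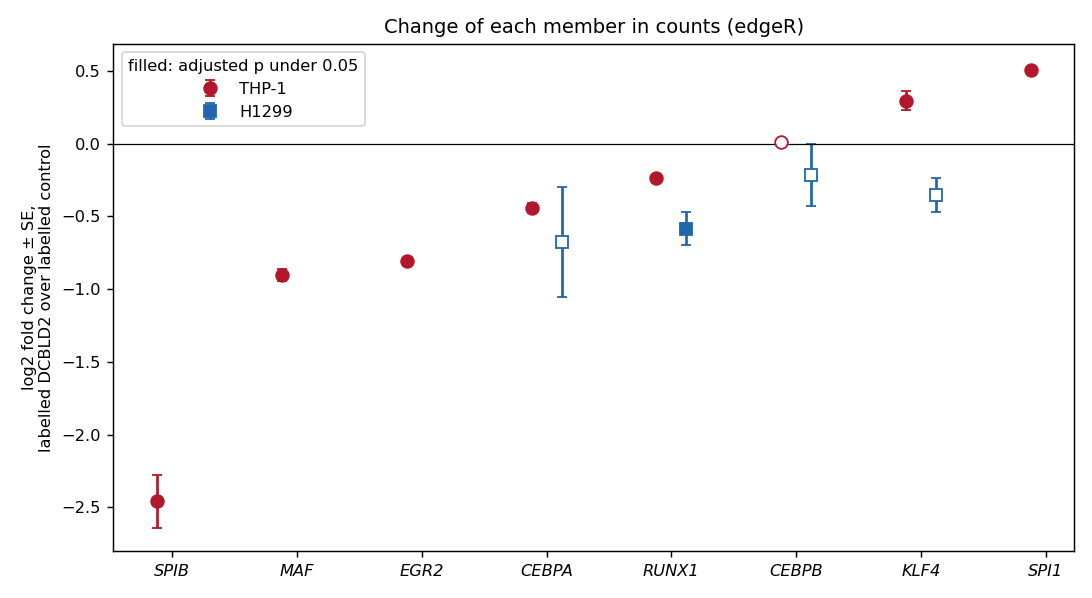
Log2 fold change of each factor, labelled DCBLD2 over labelled control, from edgeR on estimated counts, with its SE (n = 3 per group). Circles are THP-1 and squares H1299, filled where the adjusted p is under 0.05. In THP-1 the values run between -2.46 for SPIB and 0.51 for SPI1, and SPIB, MAF, EGR2 and SPI1 have no H1299 value because they had too few reads to be tested.

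The sequences upstream of the 3 factors that fell most in THP-1 are shown because they carry different combinations of core elements. EGR2 and MAF share GACGTCA, and MAF and SPIB share TATAAA. They are the 250 bases before the start annotated by RefSeq on GRCh38.p14, written 5′ to 3′ on the strand of the gene. EGR2 is given at chr10:62816367-62816616 on the minus strand, 1 of its 3 annotated starts, MAF at chr16:79600738-79600987 on the minus strand and SPIB at chr19:50418688-50418937 on the plus strand. Capitals mark TATAAA, the cyclic-AMP response element core GACGTCA on either strand, and the CArG box of serum response factor.
EGR2: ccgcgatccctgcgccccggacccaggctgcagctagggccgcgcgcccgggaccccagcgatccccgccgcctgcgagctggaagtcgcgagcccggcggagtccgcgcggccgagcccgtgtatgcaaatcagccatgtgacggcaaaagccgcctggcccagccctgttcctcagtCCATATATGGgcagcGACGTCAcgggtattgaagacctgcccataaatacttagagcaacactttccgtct
MAF: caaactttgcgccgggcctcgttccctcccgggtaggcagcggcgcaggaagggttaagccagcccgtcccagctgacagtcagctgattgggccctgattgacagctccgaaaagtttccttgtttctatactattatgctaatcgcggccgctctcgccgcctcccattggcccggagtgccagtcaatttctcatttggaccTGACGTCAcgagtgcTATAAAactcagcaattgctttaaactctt
SPIB: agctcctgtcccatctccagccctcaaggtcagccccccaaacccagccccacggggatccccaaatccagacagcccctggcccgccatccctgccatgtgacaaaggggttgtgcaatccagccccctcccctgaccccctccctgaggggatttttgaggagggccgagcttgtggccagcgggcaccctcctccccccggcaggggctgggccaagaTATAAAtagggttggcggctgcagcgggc

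Counted from the start, GACGTCA lay at -56 to -50 in EGR2 and, as overlapping matches on both strands, at -45 to -38 in MAF. The same letters occur in 3.12% of the 35116 windows of 250 bases in the RefSeq table. The CArG box lay at -71 to -62 in EGR2, and 1.16% of windows hold one. TATAAA lay at -30 to -25 in MAF and CEBPA and at -29 to -24 in SPIB and CEBPB, against 10.7% of windows with a match anywhere. In all, 10 motifs were searched on both strands, after the sequences had been read, in 10 windows of the 7 members that the table holds (SPIB, CEBPA, CEBPB, MAF, KLF4, RUNX1 and EGR2). The C/EBP letters TTGCNNAA matched once, on the minus strand at -139 to -132 in SPIB (9.05% of windows). The EGR letters GCGNGGGCG matched in KLF4 and RUNX1 (8.41% of windows), and CACCC, the core of KLF sites, in 5 windows of CEBPB, EGR2, RUNX1 and SPIB (54.7% of windows). No match was found in these windows for the PU.1 letters GAGGAAG (11.2% of windows), the RUNX letters TGTGGT (11% of windows), the MAF letters TGCTGAC (3.43% of windows) or the AP-1 letters TGANTCA (6.57% of windows). These matches describe letters, not binding, and which start the cells used was not measured.

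SPI1 encodes PU.1, the ETS-family factor without which macrophages do not form. It stands at 47354860 to 47378576 on chromosome 11, minus strand (ENSG00000066336; GENCODE release 29 on GRCh38, as for the other positions). It measured 519, 539 and 527 TPM in the THP-1 libraries labelled DCBLD2, against 380.1, 383 and 379.6 TPM in those labelled control. All 3 labelled DCBLD2 libraries lay above all 3 labelled control libraries, and the gap was many times the spread within either group. The means were 528 ± 10.3 and 381 ± 2.06 TPM (SD, n = 3 each), and the log2 fold change was 0.51 ± 0.019 (SE, edgeR, adjusted p = 8.66e-18). In H1299 it was near the limit of detection, with 3, 0 and 3 estimated reads in labelled DCBLD2 and 2, 2 and 0 in labelled control.

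SPIB, the relative of PU.1 better known from B cells, had the lowest level of the 8 in THP-1 and the largest fall. It lies on chromosome 19 between 50418938 and 50431313 on the plus strand (ENSG00000269404). The labelled DCBLD2 libraries held 1.53, 2.08 and 0.974 TPM, and the labelled control libraries 4.08, 7.26 and 4.43 TPM. The estimated reads were 33, 30 and 16 in labelled DCBLD2, against 124, 136 and 127 in labelled control. The groups did not overlap in either unit, but the control TPM of replicate 2 stood apart while its reads did not. The log2 fold change was -2.46 ± 0.18 (SE, edgeR, adjusted p = 6.49e-12). The ratio of mean TPM was 0.290, a log2 value of -1.78, so the fall is smaller per transcript length. On log2(TPM + 1), where low genes are damped, limma gave -1.30 with an adjusted p of 0.000636, the highest over all alternatives, the lowest being 5.95e-42.

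The difference between the units in SPIB shows in the number of estimated reads behind each TPM, relative to the library's median gene. A gene's value here depends on the transcript length that the authors' estimate assigned to it. It was 0.560 (0.397 to 0.649) in labelled DCBLD2 and 0.940 (0.698 to 1.13) in labelled control. On the same strand SPIB overlaps a coding gene model, AC020909.1, which held 0 reads in the labelled DCBLD2 libraries and 13 over the 3 labelled control libraries. The SPIB count may be split with it, and which transcripts were present was not analysed here. In H1299, SPIB had 0, 0 and 2 estimated reads in labelled DCBLD2 and 0, 2 and 2 in labelled control.

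**Figure D2:**
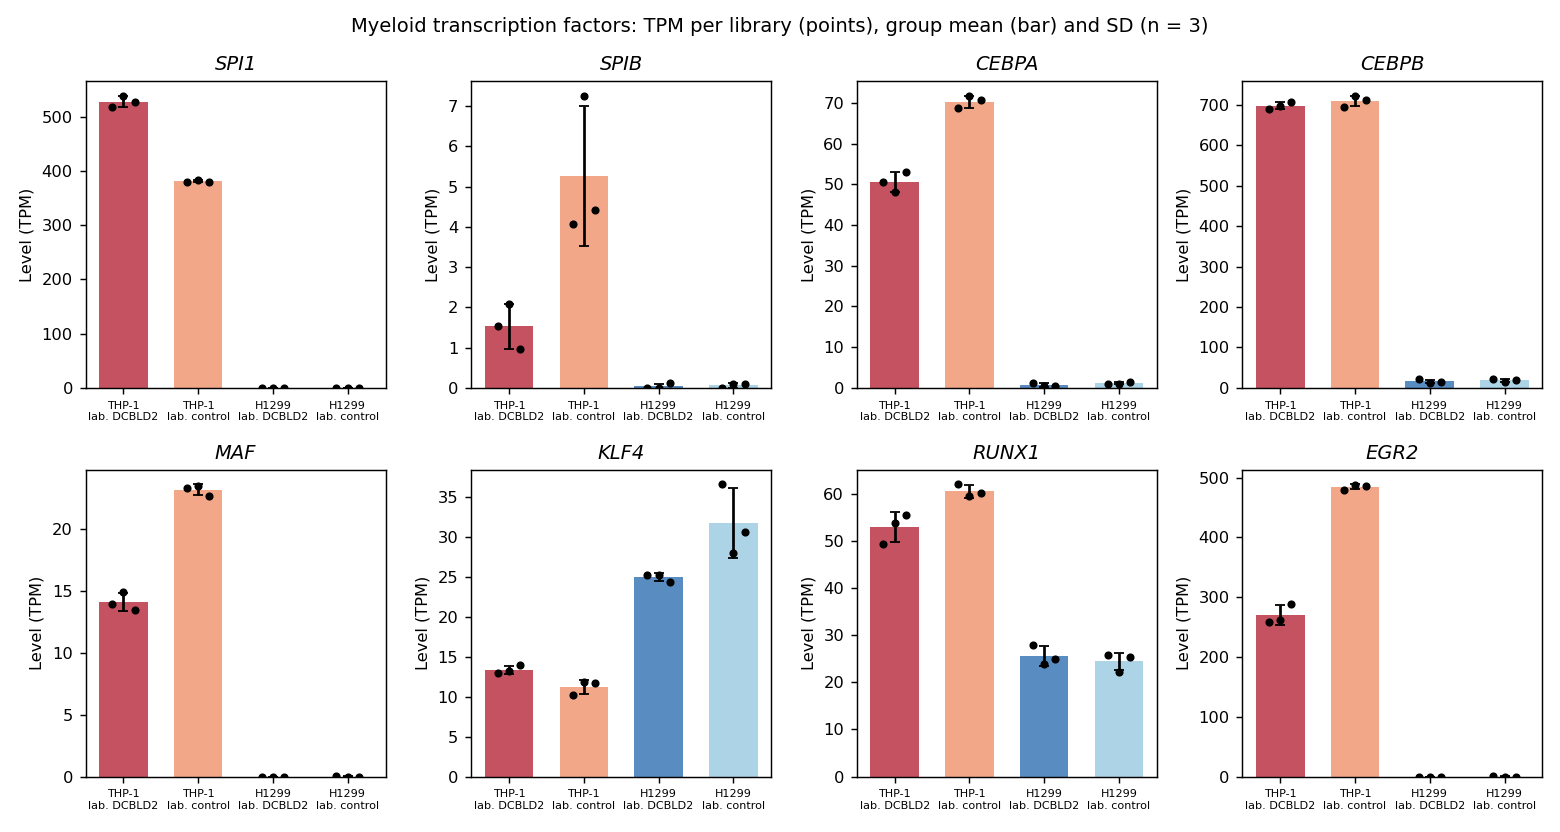
TPM of each factor in every library (points), with the group mean (bar) and SD (n = 3), for THP-1 and H1299, labelled DCBLD2 left of labelled control. Each panel has its own axis, which starts at 0. SPI1, SPIB, MAF and EGR2 are at or near 0 in H1299, while KLF4 is higher in H1299, at 24.4 to 36.6 TPM, than in THP-1, at 10.2 to 13.96 TPM.

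CEBPA, the C/EBP factor of granulocyte and monocyte progenitors, fell in THP-1. This gene of a single exon lies at 33299934 to 33302564 on chromosome 19, minus strand (ENSG00000245848), and 2 antisense models overlap it, whose reads cannot be told apart where strand was not used in counting. It measured 50.6, 48.1 and 53.0 TPM in labelled DCBLD2, against 68.6, 71.6 and 70.6 TPM in labelled control. The highest labelled DCBLD2 library was well under the lowest labelled control library. The log2 fold change was -0.44 ± 0.035 (SE, edgeR, adjusted p = 2.48e-11), and the ratio of mean TPM was 0.719. In H1299 it was low, at 1.18, 0.506 and 0.476 TPM in labelled DCBLD2 and 0.931, 0.988 and 1.38 TPM in labelled control. Those groups overlapped, and the log2 fold change of -0.67 ± 0.38 did not pass the test (SE, edgeR, adjusted p = 0.221).

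CEBPB, the C/EBP factor of inflammatory and stress responses, was the most abundant of the 8 in both THP-1 groups. It lies at 50190734 to 50192689 on chromosome 20, plus strand (ENSG00000172216), with CEBPB-AS1 on the other strand. It measured 689.7, 698 and 707 TPM in labelled DCBLD2, against 696, 722 and 713 TPM in labelled control. The groups overlapped, and the log2 fold change was 0.01 ± 0.017 (SE, edgeR, adjusted p = 0.564). In H1299 it held 21.1, 12.8 and 13.7 TPM in labelled DCBLD2 and 21.1, 13.4 and 20.4 TPM in labelled control. These groups overlapped too, with a log2 fold change of -0.22 ± 0.21 (SE, edgeR, adjusted p = 0.491).

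MAF encodes c-MAF, a leucine-zipper factor known for the induction of IL10 in macrophages. It lies at 79585843 to 79600714 on chromosome 16, minus strand (ENSG00000178573). THP-1 libraries held 13.97, 14.9 and 13.5 TPM in labelled DCBLD2, against 23.4, 23.5 and 22.7 TPM in labelled control. The groups were far apart relative to their spread. The log2 fold change was -0.90 ± 0.041 (SE, edgeR, adjusted p = 3.14e-16), and -0.72 as a ratio of mean TPM. The reads behind each TPM were 1.82 (1.79 to 1.84) times the library median in labelled DCBLD2 and 2.13 (2.09 to 2.197) times in labelled control. In H1299, MAF had 0 reads in all 3 labelled DCBLD2 libraries and 1, 0 and 0 in labelled control.

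EGR2, a zinc-finger factor of the immediate-early type, was the third most abundant of the 8 in labelled DCBLD2 THP-1 cells and the second in labelled control. It lies at 62811996 to 62919900 on chromosome 10, minus strand (ENSG00000122877). It measured 259, 262 and 289 TPM in labelled DCBLD2, against 479.8, 488 and 486 TPM in labelled control. No library came near the other group. The log2 fold change was -0.81 ± 0.020 (SE, edgeR, adjusted p = 7.04e-22), with a ratio of mean TPM of 0.557. In H1299, EGR2 had 0, 0 and 1 reads in labelled DCBLD2 and 4, 1 and 1 in labelled control.

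KLF4, a zinc-finger factor that drives monocyte differentiation and also serves epithelial cells, was the only one of the 8 with a higher level in H1299 than in THP-1. It lies at 107484852 to 107490482 on chromosome 9, minus strand (ENSG00000136826). THP-1 libraries held 13.03, 13.2 and 13.96 TPM in labelled DCBLD2, against 10.2, 11.9 and 11.7 TPM in labelled control. The groups did not overlap, and the log2 fold change was 0.30 ± 0.066 (SE, edgeR, adjusted p = 0.000322). With the larger spread of H1299 replicates applied to THP-1, the call was lost (adjusted p = 0.159; all alternatives 2.36e-05 to 0.159).

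In H1299, KLF4 measured 25.3, 25.2 and 24.4 TPM in labelled DCBLD2, against 36.6, 28.0 and 30.7 TPM in labelled control. Every labelled DCBLD2 library was lower than every labelled control library. The log2 fold change of -0.35 ± 0.11 missed the threshold (SE, edgeR, adjusted p = 0.0538). It passed with DESeq2 (0.0347), with all 12 libraries in 1 fit (0.00838) and without labelled control replicate 2 (0.0261), over a range of 0.00838 to 0.18 for all alternatives. The THP-1 and H1299 changes of KLF4 were tested against each other directly. The THP-1 change was higher by 0.63 ± 0.13 on the log2 scale (SE, edgeR interaction, adjusted p = 0.00142), where 38.7% of 14244 genes were called in that test. This difference rests on the H1299 labels, which DCBLD2 goes against. With only the labels of the H1299 libraries exchanged, the KLF4 change would be positive in both lines. With the THP-1 groups exchanged as well, the signs would stay opposite.

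RUNX1, the runt-domain factor that pairs with CBFB, was expressed in both lines. It spans 34787801 to 36004667 on chromosome 21, minus strand (ENSG00000159216), and 7 small gene models overlap it, 3 of them on the other strand. THP-1 libraries held 49.3, 53.7 and 55.4 TPM in labelled DCBLD2, against 61.9, 59.4 and 60.1 TPM in labelled control. The groups did not overlap, and the log2 fold change was -0.24 ± 0.023 (SE, edgeR, adjusted p = 1.52e-09). This call was also lost with the H1299 spread (adjusted p = 0.251; all alternatives 4.45e-19 to 0.251). CBFB, its partner, was at 37.7 ± 3.06 TPM in labelled DCBLD2 and 36.6 ± 1.01 TPM in labelled control (SD, n = 3), with a log2 fold change of 0.14 (edgeR, adjusted p = 0.0024; chosen after its values were seen).

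In H1299, the direction of RUNX1 depended on the unit. The estimated reads were 610, 784 and 801 in labelled DCBLD2, against 1358, 1146 and 1389 in labelled control, and all 3 labelled DCBLD2 libraries were lower. The log2 fold change in counts was -0.58 ± 0.11 (SE, edgeR, adjusted p = 0.00919). In TPM the same libraries held 28.0, 23.8 and 25.0 in labelled DCBLD2, against 25.7, 22.2 and 25.3 in labelled control, and the groups overlapped. Limma on log2(TPM + 1) gave 0.07 with an adjusted p of 0.723, the highest of all alternatives, the lowest being 7.59e-05. The call in counts was also lost without labelled DCBLD2 replicate 2 (adjusted p = 0.0579).

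The reads behind each TPM show where the units part for RUNX1. In H1299 they were 1.14 (1.09 to 1.22) times the library median in labelled DCBLD2 and 1.78 (1.70 to 1.92) times in labelled control. In THP-1 they were 2.28 (2.1998 to 2.38) times in labelled DCBLD2 and 2.41 (2.38 to 2.43) times in labelled control. CEBPA, CEBPB and KLF4 gave nearly the same value in all 4 groups, and SPI1 did so in both THP-1 groups, such as 1.23 for KLF4 in THP-1 labelled DCBLD2 and 1.24 in H1299 labelled DCBLD2. A lower value means that fewer reads stood behind the same transcript level, as a shorter assigned length gives. Which RUNX1 transcripts were present was not analysed here. The THP-1 and H1299 changes of RUNX1 differed by 0.34 ± 0.099 in counts (SE, edgeR interaction, adjusted p = 0.0154), but by -0.26 on log2(TPM + 1) (limma, adjusted p = 0.0808; all alternatives 0.00159 to 0.0808). The interaction SE comes from a spread shared by both lines, and is below the 0.113 of the H1299 change alone.

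**Figure D3:**
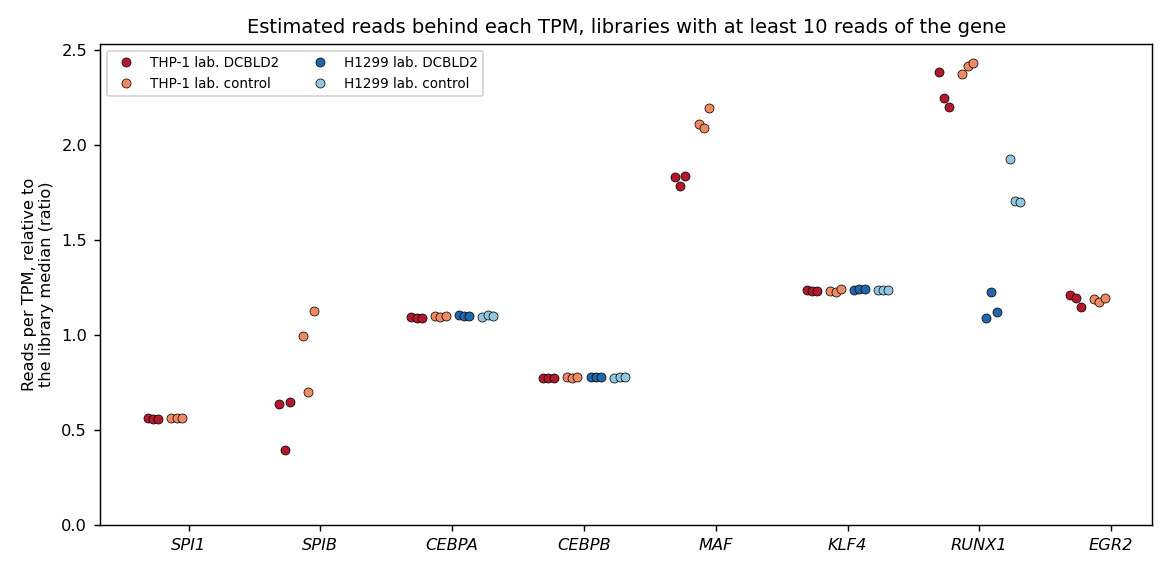
Estimated reads per TPM of each factor, divided by the median over genes of the same library, for every library with at least 10 reads of the gene. Points of 1 factor at the same height mean that counts and TPM give the same fold change up to the scaling of each library. RUNX1 in H1299 is at 1.09 to 1.22 in labelled DCBLD2 and 1.70 to 1.92 in labelled control, and SPIB and MAF in THP-1 also differ between groups.

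In H1299, 4 of the 8 factors had enough reads to be tested, CEBPA, CEBPB, KLF4 and RUNX1. Of these, 1 was called, RUNX1, and it was lower, where 20.9% of 12773 genes were called (10.3% higher and 10.6% lower). KLF4 was the only one of the 4 whose TPM groups did not overlap, against 37.5% of tested genes. The median of the 4 was -0.47, beside 0.00 for all genes tested. SPI1, SPIB, MAF and EGR2 had 10, 6, 1 and 7 reads over the 6 H1299 libraries, so a change of them was not detectable at this depth. The direct test of THP-1 against H1299 changes called 2 of the 4 usable factors, KLF4 and RUNX1, near the 38.7% of all genes, and the RUNX1 difference turned to -0.26 on log2(TPM + 1). CEBPA and CEBPB differed by 0.26 ± 0.29 and 0.22 ± 0.21 (SE, edgeR, adjusted p = 0.515 and 0.425).

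Between the lines, 7 of the 8 factors were higher in THP-1 and KLF4 was lower, where 89.7% of 14244 genes were called (43.9% higher and 45.8% lower). Line, PMA and exposure move together in this contrast and cannot be told apart. Reads were pooled over the 6 libraries of each line and set per read sequenced, with exact binomial 95% intervals that cover counting error only. EGR2 was 9773 times as frequent in THP-1 as in H1299 (4743 to 24309), SPI1 4038 times (2196 to 8422) and SPIB 68.0 times (31.0 to 186). Of the 7 H1299 reads of EGR2, 4 came from labelled control replicate 1, and without that library its ratio was 19037 (6514 to 92315). MAF rests on 1 H1299 read, which gives a ratio of 5747 with an interval of 1031 to 227040. CEBPA was 61.5 times (52.7 to 72.1) and CEBPB 39.0 times (37.4 to 40.8) as frequent, and RUNX1 3.39 times (3.29 to 3.48). KLF4 had a ratio of 0.407 (0.389 to 0.426). The fitted log2 difference of KLF4 was -0.91 ± 0.064 (SE, edgeR, adjusted p = 2.51e-09). On log2(TPM + 1) it was -1.13 and that of RUNX1 1.15, where the median of all genes was -0.27.

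The order of the factors by level changed between the THP-1 groups. In labelled DCBLD2 it was CEBPB, SPI1, EGR2, RUNX1, CEBPA, MAF, KLF4 and SPIB, high to low in TPM. The ranges of RUNX1 and CEBPA overlapped there, as did those of MAF and KLF4. In labelled control it was CEBPB, EGR2, SPI1, CEBPA, RUNX1, MAF, KLF4 and SPIB, and no neighbours overlapped. SPI1 and EGR2 thus changed places. The ratio of SPI1 to EGR2, chosen after the values were seen and given with no test, was 2.004, 2.06 and 1.82 in labelled DCBLD2, against 0.792, 0.785 and 0.782 in labelled control. The ratio of SPI1 to CEBPA was 10.5 ± 0.665 in labelled DCBLD2 and 5.43 ± 0.0981 in labelled control (SD, n = 3). That of CEBPB to CEBPA was 13.8 ± 0.624 in labelled DCBLD2 and 10.1 ± 0.0309 in labelled control (SD, n = 3).

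**Figure D4:**
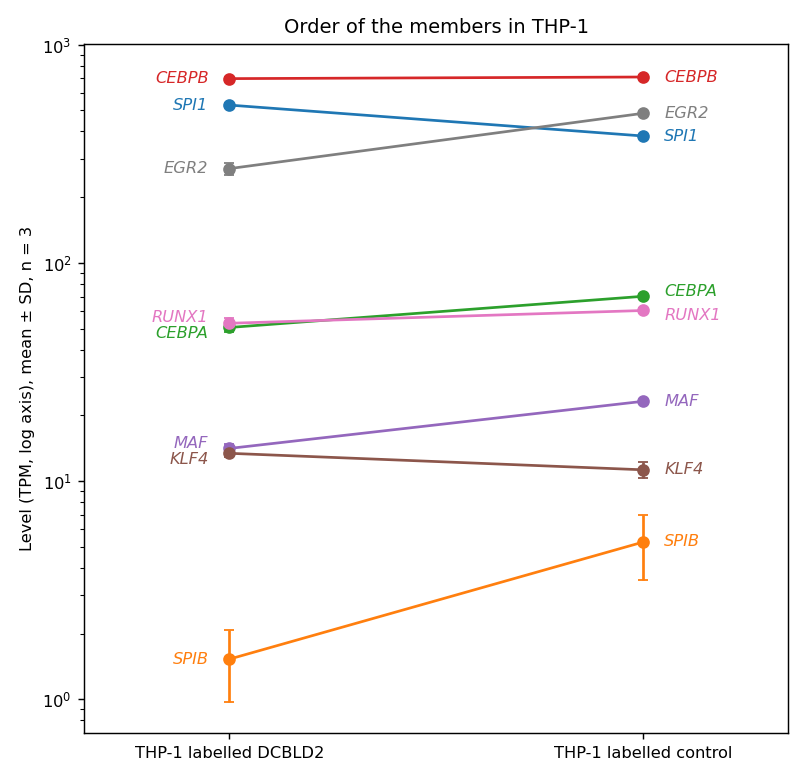
Mean level of each factor in THP-1 (TPM on a log axis) with its SD (n = 3), labelled DCBLD2 on the left and labelled control on the right. The SPI1 and EGR2 lines cross, at 528 and 270 TPM in labelled DCBLD2 and 381 and 484.5 TPM in labelled control, while CEBPB is at 698 TPM in labelled DCBLD2 and 710 TPM in labelled control.

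In H1299 labelled DCBLD2 the order was RUNX1, KLF4, CEBPB and CEBPA, with overlapping ranges of RUNX1 and KLF4. In H1299 labelled control it was KLF4, RUNX1, CEBPB and CEBPA, with no overlap. The other 4 factors were under 0.3 TPM in every H1299 library, and their order there rests on a few reads. Against all genes of the table, CEBPB and SPI1 in labelled DCBLD2 THP-1 cells were at or above 99.0% and 98.7% of genes, and EGR2 at or above 97.4%. MAF and KLF4 were at or above 68.3% and 67.5% there, and SPIB 45.0%.

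The genes nearest to each factor in pattern were found by the root mean square difference of log2(TPM + 1), each gene centred on its mean over the 12 libraries, among 12489 genes of at least 1 TPM. The 12 points come from the same 4 groups, so this is a description with no test. For SPI1 the nearest were BCL2A1 (0.0960), an anti-death gene of the BCL2 family, and CSF1R (0.141), the receptor for macrophage colony-stimulating factor. BCL2A1 was at 511 TPM in THP-1 labelled DCBLD2 and 372 TPM in THP-1 labelled control, and CSF1R at 422 TPM in labelled DCBLD2 and 318 TPM in labelled control. For EGR2 the nearest were GPC4 (0.0839), a cell-surface proteoglycan at 239 TPM in labelled DCBLD2 and 432 TPM in labelled control, and OCSTAMP (0.126), which is needed for the fusion of osteoclasts. For MAF they were CTSL (0.0791), a lysosomal protease, and LRRC4B (0.0809).

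The patterns nearest to KLF4 were AKT2 (0.0840) and TAF6L (0.0905), and those nearest to RUNX1 were ADAR (0.0680) and B3GNT2 (0.0761). AKT2, a kinase of insulin signalling, had the log2 fold change 0.26 in THP-1 and -0.36 in H1299 (edgeR, adjusted p = 1.86e-09 and 0.0284). Less close were RBM47 and APOBEC3G to CEBPA (0.181 each), AGT and RTN4RL2 to CEBPB (0.211 and 0.222), and TIMP4 and GALNT12 to SPIB (0.216 and 0.222). With a pseudocount of 0.1 in place of 1, AKT2 and ADAR were the only ones of these 16 genes named again, and with a minimum of 5 TPM all but those of SPIB were.

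The 20 relatives of the 8 factors moved in both directions in THP-1. Of the 19 tested, 8 were higher and 7 lower, and 4 did not pass. Their median was 0.00, as for all genes, of which 34.5% were called higher and 33.6% lower. KLF10, a zinc-finger factor induced by TGF-beta, was at 39.5 ± 0.938 TPM in labelled DCBLD2 and 70.3 ± 1.53 TPM in labelled control (SD, n = 3; log2 fold change -0.80, edgeR, adjusted p = 1.48e-17). CEBPD, a C/EBP factor induced in inflammation, was at 61.5 ± 3.17 TPM in labelled DCBLD2 and 35.7 ± 2.75 TPM in labelled control (SD, n = 3; 0.82, edgeR, adjusted p = 2.22e-12). The EGR relatives EGR1 (-0.29, adjusted p = 3.78e-07, edgeR) and EGR3 (-0.95, adjusted p = 1.32e-05, edgeR) were lower like EGR2, and EGR4 was at -0.42 and not called (adjusted p = 0.141, edgeR). EGR3 and EGR4 were chosen after their values were seen and were under 4 TPM. KLF3 was called at 0.27 in counts but had 0.04 on log2(TPM + 1) (limma, adjusted p = 0.522). The calls of EGR1 and KLF3 were lost with the H1299 spread, and that of EGR1 also with all 12 libraries in 1 fit. SPIC, the third member of the PU.1 subfamily, was listed at 0.

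The partners and modulators of the factors numbered 16, of which 14 were tested in THP-1. Calls were 4 higher and 7 lower, beside 34.5% and 33.6% of all genes tested, and the median was -0.10. NAB2, a corepressor that binds EGR proteins, was at 134 ± 2.03 TPM in labelled DCBLD2 and 105 ± 2.002 TPM in labelled control (SD, n = 3; log2 fold change 0.39, edgeR, adjusted p = 2.09e-13). NAB1, its relative, had 0.58 (edgeR, adjusted p = 5.08e-11; chosen after its values were seen). TRIB1, the pseudokinase that brings C/EBP proteins to the COP1 ligase for degradation, was at 331 ± 7.70 TPM in labelled DCBLD2 and 580.1 ± 2.37 TPM in labelled control (SD, n = 3; -0.73, adjusted p = 3.16e-22, edgeR). IRF8, which binds DNA together with PU.1, was lower (-0.53), as was JUN (-0.37), an AP-1 subunit, whose call was lost with the H1299 spread.

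**Figure D5:**
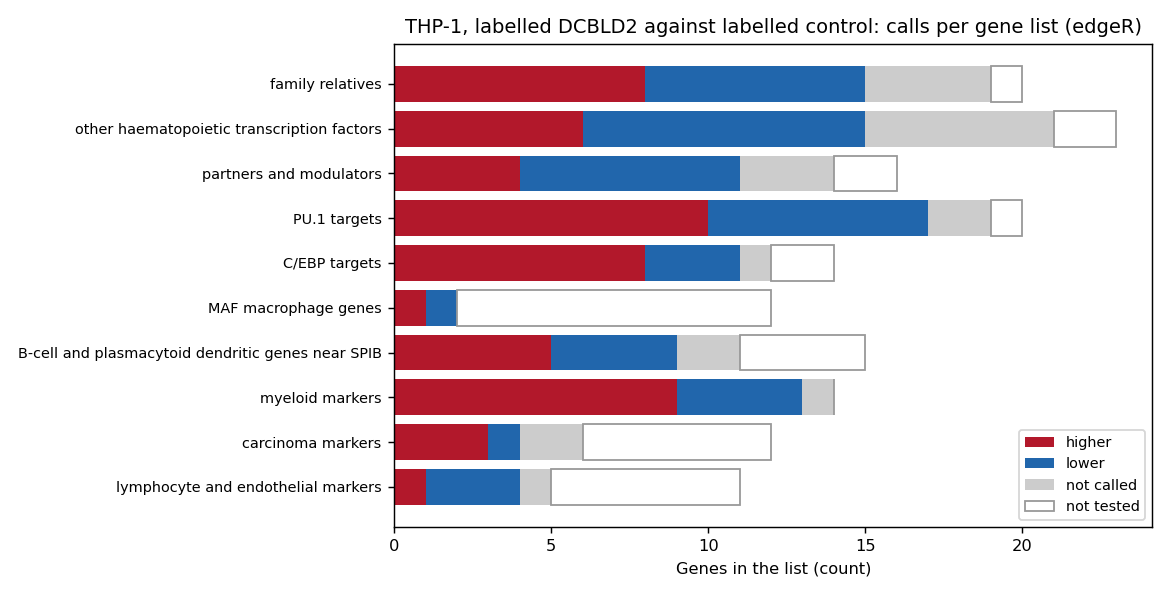
Number of genes called higher, called lower, not called and not tested in THP-1, labelled DCBLD2 against labelled control (edgeR, adjusted p under 0.05), for each of 10 gene lists. Each list holds calls in both directions, beside 34.5% higher and 33.6% lower among all genes tested.

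Among 23 other haematopoietic transcription factors, 21 were tested in THP-1, with 6 higher and 9 lower, and their median was -0.06. All genes tested had 34.5% higher, 33.6% lower and a median of 0.00. MEF2C, a factor of muscle, bone and blood cells, was at 89.5 ± 4.37 TPM in labelled DCBLD2 and 32.3 ± 1.38 TPM in labelled control (SD, n = 3; log2 fold change 1.66, edgeR, adjusted p = 4.87e-24). LMO2, a bridging protein of blood stem cell complexes, had 0.81, ZEB2 0.53 and BCL6, a transcriptional repressor at 435 TPM in labelled DCBLD2 and 593 TPM in labelled control, -0.40. These 4 had the smallest p-values of the list.

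Genes known as PU.1 targets moved in both directions in THP-1, as all genes tested did (34.5% called higher and 33.6% lower). Of 20, 19 were tested, with 10 higher and 7 lower, and their median was 0.16, beside 0.00 for all genes. CSF1R was at 422 ± 10.3 TPM in labelled DCBLD2 and 318 ± 3.10 TPM in labelled control (SD, n = 3; 0.44, edgeR, adjusted p = 1.16e-17). CD14, the lipopolysaccharide co-receptor (1.49), and the scavenger receptor MSR1 (1.02) were also higher. ITGAM, the alpha chain of the complement receptor integrin, was lower, at 69.7 ± 0.659 TPM in labelled DCBLD2 and 132 ± 2.203 TPM in labelled control (SD, n = 3; -0.87, edgeR, adjusted p = 5.11e-22).

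Of 14 C/EBP targets, 12 were tested in THP-1, where 34.5% of all genes tested were called higher and 33.6% lower. Of these targets, 8 were higher and 3 lower, and their median was 0.27, beside 0.00 for all genes. The most abundant targets, IL1B (-0.22) and the neutrophil chemokine CXCL8 (-0.24), were lower, and PTGS2 (0.28), the inducible prostaglandin synthase, was higher. All 3 calls were lost with the H1299 spread. Of 12 genes known from MAF-expressing macrophages, 2 had enough reads to be tested. MERTK, a receptor for the uptake of dying cells, was at 18.6 ± 0.614 TPM in labelled DCBLD2 and 36.5 ± 0.460 TPM in labelled control (SD, n = 3; -0.90, edgeR, adjusted p = 2.47e-16). CD163, the haemoglobin scavenger receptor, was at 0.698 ± 0.270 TPM in labelled DCBLD2 and 0.262 ± 0.153 TPM in labelled control (SD, n = 3; 1.22, edgeR, adjusted p = 0.00328).

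Of 15 genes of B cells and plasmacytoid dendritic cells, the cell types SPIB is known from, 11 were tested in THP-1. Their calls were 5 higher and 4 lower, beside 34.5% and 33.6% of all genes tested, and their median was 0.16. IRF7 was at 49.5 ± 1.71 TPM in labelled DCBLD2 and 35.8 ± 0.948 TPM in labelled control (SD, n = 3; 0.46, edgeR, adjusted p = 7.63e-10), and TCF4 had 0.87. POU2F2, an octamer-binding factor, was at -0.17, a call lost with the H1299 spread. TLR7 had 2.88 at 0.257 TPM in labelled DCBLD2 and 0.0333 TPM in labelled control. CLEC4C and POU2AF1 were listed at 0 in THP-1, but other genes of this list were expressed there. IL3RA was called lower, at 5.03 TPM in labelled DCBLD2 and 7.36 TPM in labelled control (-0.51). CD79A was also lower, at 1.21 TPM in labelled DCBLD2 and 3.41 TPM in labelled control (-1.40), as was TLR9 (-0.68). CD79B was called higher (1.49), with TPM groups that overlapped. CLEC4C, POU2AF1, IL3RA and TLR9 were chosen after their values were seen. Of 11 lymphocyte and endothelial markers, CD3E, CD3G and MS4A1 were at 0 in all THP-1 libraries, and the summed level was 143 to 154 TPM in labelled DCBLD2 and 176 to 179 TPM in labelled control, most of it PECAM1 at 145 TPM in labelled DCBLD2 and 168 TPM in labelled control.

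In H1299, where 20.9% of all genes tested were called, 2 of 15 tested relatives were higher and 2 lower, with KLF10 at -0.66 and RUNX3 at -0.76, the leucine-zipper factor MAFF at 0.54 and CEBPZ at 0.90. RUNX3 was at 9.51 ± 0.635 TPM in labelled DCBLD2 and 16.0 ± 1.74 TPM in labelled control (SD, n = 3; edgeR, adjusted p = 0.00559). The call of CEBPZ was lost without labelled DCBLD2 replicate 2 (adjusted p = 0.0764, edgeR). That of MAFF was lost without labelled DCBLD2 replicate 2 or 3, without labelled control replicate 3 and with the replicate number as a block (adjusted p = 0.0621 to 0.104, edgeR). KLF10 was called lower in both lines by the labels as given. Its signs would be opposite with the labels of the H1299 libraries alone exchanged. RUNX3 in THP-1 was at 0.00 and not called (adjusted p = 0.928, edgeR). Of 13 other haematopoietic factors, 1 was called, FLI1, an ETS factor, at -0.74 (edgeR, adjusted p = 0.00578). Of 12 partners and modulators, 0 were called by edgeR and 0 by DESeq2, and 3 had an unadjusted p under 0.05.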

How the data were processed

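RNA-seq was done on 12 libraries, 3 in each of 4 groups, which were taken from the genotype and treatment labels. Trizol extraction, enrichment of mRNA and a NEBNext Ultra kit were used, per the labels' protocols. The tools named in the submitters' processing notes are RSEM, HISAT2, StringTie 1.3.1, Bowtie2 2.2.8 and fastp 0.18.0, on hg38. How strand was handled, and which annotation release was used, is not given in the sources used here. The table deposited by the authors gives, for each gene and library, an estimated count and a TPM value. The counts were not normalized, and 605 rows without a symbol took at most 0.165% of reads.

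After rounding to whole numbers, the estimated counts went into the two-sided quasi-likelihood test of edgeR 4.0.16 under R 4.3.3, scaled by TMM, for genes that passed filterByExpr at a minimum of 10 counts. Each line was fitted on its own 6 libraries, and all 12 were fitted with 4 group means for the difference of responses and for THP-1 against H1299. The joint fit shares its spread estimate between the lines. Its common coefficient of variation was 9.48%, against 13.3% in H1299 and 1.96% in THP-1 fitted alone. Its SEs and p-values can therefore be too small where H1299 varies more. P-values were adjusted over all genes tested after Benjamini and Hochberg, with calls under 0.05. Levels are given in TPM as mean ± SD. Counting error alone sets a floor of 3 reads per group for a gene at 0, 0.0428 to 0.0547 CPM. All replicates were counted, since the chi-square per gene between pairs of one group was 1.55 to 2.27 in THP-1 and 10.4 to 35.2 in H1299, above sampling noise. The edgeR and DESeq2 fits within each line were also run on simulated counts, whose results are not given here.

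The 8 members, the 10 gene lists and the tests were chosen with earlier results of these data known. Beside DCBLD2 and the members, genes named are the 2 nearest in pattern to each member and the called genes with the smallest p-values per list and line, up to 4, or 2 as values where none was called. Not every gene of that rule is printed, 1 member of a list is not reported here, and genes outside it are marked as chosen after their values were seen. CSF2RA and IL3RA each have an identical second row and were counted once in the lists. Promoter sequences are from RefSeq (GRCh38.p14) and positions from GENCODE release 29, in which 98.9% of gene identifiers were found. Alternatives were limma 3.58.1 on log2(TPM + 1), DESeq2 1.42.0, edgeR with the size factors of DESeq2, a minimum mean of 10 counts or no filter at all, a block for the replicate number, the omission of each library, all 12 libraries in 1 fit, the H1299 spread (a common coefficient of variation of 13.3%, against 1.96% in THP-1) applied to THP-1, and other settings for pattern likeness. Transcript structure was not analysed here.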

Additional observations from a re-analysis of the deposited data

Results flagged for a closer look

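KLF4 differed between the lines by the labels as given. The THP-1 log2 fold change exceeded that of H1299 by 0.635 (edgeR interaction, adjusted p = 0.00142), with every THP-1 labelled DCBLD2 library above every labelled control library and every H1299 labelled DCBLD2 library below. All 18 alternatives kept this call, over 0.56 to 0.74, each with a spread estimate shared by the lines. DCBLD2 itself went against the H1299 labels. With only the labels of the H1299 libraries exchanged, the H1299 change of KLF4 would have the sign of that in THP-1. With the THP-1 groups exchanged as well, the signs would stay opposite.

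RUNX1 also differed between the lines, by 0.335 in estimated counts (edgeR interaction, adjusted p = 0.0154), with a negative log2 fold change in both, -0.24 in THP-1 and -0.58 in H1299. On log2(TPM + 1) the difference was -0.26 (limma, adjusted p = 0.0808), and the other 17 alternatives kept the call in counts. All these fits shared the spread estimate between the lines. The number of reads behind each TPM of RUNX1 differed between the H1299 groups, as given above, and the part of transcript usage in this was not tested.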

How the results depend on the processing

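The calls of SPI1, SPIB, CEBPA, MAF and EGR2 in THP-1 kept their direction and their side of the threshold under all 14 alternatives. With the H1299 spread, KLF4 and RUNX1 lost their THP-1 calls and the count of called genes was 4531, against 8941. In H1299 the count was 2671, and 5056 with all 12 libraries in 1 fit. Leaving out single libraries gave 8461 to 8720 genes in THP-1, 507 to 3167 in H1299, 4664 to 5994 for the difference of responses and 12712 to 12981 between the lines; groups then held 2 libraries. In H1299 labelled DCBLD2, leaving out replicate 2 gave the 507, and leaving out replicate 1 gave 1374. Leaving out replicate 3 of H1299 labelled control gave 1648. RUNX1 reversed on log2(TPM + 1), to 0.0658 in H1299 and -0.26 for the difference of responses; the cause was not tested. Without labelled DCBLD2 replicate 1 of H1299, the differences of CEBPA (0.77) and CEBPB (0.51) passed the threshold. The log2 change of the SPI1 to SPIB ratio was 2.27 in TPM and 3.02 in counts. Over 99 named results, 1147 alternatives were the same, 38 lost a call, 20 gained one, 18 moved and 2 reversed. The THP-1 to H1299 frequencies with single libraries left out, added after seeing the data, are among these. Same means an unchanged call, with an unchanged direction where a call was made, or a ratio or set of nearest genes that did not move. Uncalled changes could switch sign, as CEBPB in THP-1 did, from 0.01 with edgeR to -0.02 with limma on log2(TPM + 1).

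Replicate numbers did not pair the H1299 samples, where same-numbered deviations correlated at -0.117, -0.284 and -0.274, against -0.159 to 0.36 for different numbers. The highest were labelled DCBLD2 replicate 1 with labelled control replicate 3 (0.257), 2 with 1 (0.286) and 3 with 2 (0.36). Whether the H1299 samples are paired in another order was not tested. In THP-1 the same-numbered correlations were 0.0293, 0.0503 and 0.0566, against -0.0779 to 0.0304 for different numbers. Such small values do not settle whether the numbers pair the THP-1 samples. With the replicate block, 8990 genes were called in THP-1, 1797 in H1299, 4989 for the difference and 12692 between the lines. No member's call changed with it, and not every THP-1 library correlated best with its own number. In H1299, single-digit read numbers of SPI1, SPIB, MAF and EGR2 limit any statement on them.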

Other observations

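Of 14 myeloid markers in THP-1, 9 were called higher in labelled DCBLD2, 4 lower and 1 not called, where 34.5% of all genes tested were called higher and 33.6% lower. Their median log2 fold change was 0.38, beside 0.00 for all genes, and the difference was not tested. CORO1A, an actin regulator of blood cells, was at 783 ± 14.7 TPM in labelled DCBLD2 and 298 ± 6.19 TPM in labelled control (SD, n = 3; 1.43, edgeR, adjusted p = 1.15e-26). TYROBP, the signalling adaptor DAP12, was at 1733 ± 11.7 TPM in labelled DCBLD2 and 869 ± 12.8 TPM in labelled control (SD, n = 3; 1.03, edgeR, adjusted p = 3.33e-24). ITGAM was among the 4 lower, as given above. Of 6 tested carcinoma markers in THP-1, 3 were higher, 1 lower and 2 not called, and of 5 lymphocyte and endothelial markers 1 was higher, 3 lower and 1 not called.

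Among further factors of blood cells, chosen after their values were seen, GATA2 was at 3.53 ± 0.311 TPM in THP-1 labelled DCBLD2 and 7.72 ± 1.58 TPM in labelled control (SD, n = 3; -0.99, edgeR, adjusted p = 1.05e-09). GFI1, a repressor known from granulocyte development, was at 30.1 ± 0.739 TPM in labelled DCBLD2 and 49.5 ± 0.891 TPM in labelled control (SD, n = 3; -0.63, edgeR, adjusted p = 6.08e-13). IRF4 had -1.72 at 0.503 TPM in labelled DCBLD2 and 1.53 TPM in labelled control (edgeR, adjusted p = 1.32e-07). Others were called higher: the granulocyte factor CEBPE (1.51, at 2.32 TPM in labelled DCBLD2 and 0.831 TPM in labelled control; edgeR, adjusted p = 0.000142), TFEC (0.90, edgeR, adjusted p = 1.05e-12), BATF3 (0.83, edgeR, adjusted p = 0.00194) and LYL1 (0.45, edgeR, adjusted p = 1.44e-07).

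In H1299, where 20.9% of all genes tested were called, 2 of 5 tested PU.1 targets were higher and the others not called. By edgeR, 0 of 2 C/EBP targets, 0 of 2 genes of MAF-expressing macrophages and 0 of 4 B-cell and plasmacytoid dendritic genes were called there, with 1, 0 and 1 at an unadjusted p under 0.05 and 1, 0 and 0 called by DESeq2. Myeloid markers in H1299 had 3 higher, 1 lower and 2 not called, and carcinoma markers 3 lower and 7 not called. Of the called myeloid markers, TYROBP lost its call in 4 of the omissions of a single library (adjusted p = 0.0647 to 0.137, edgeR), CD68 without labelled DCBLD2 replicate 2 (0.0505, edgeR) and ITGB2, at 0.663 TPM in labelled DCBLD2 and 0.267 TPM in labelled control, on log2(TPM + 1) (0.0773, limma). SPP1 kept its call. Of the carcinoma markers, DSP and KRT18 lost theirs without labelled DCBLD2 replicate 2 (0.102 and 0.0704, edgeR), and DSP under 4 other alternatives. Of 3 lymphocyte and endothelial markers, 0 were called by edgeR and 2 by DESeq2, and 2 had an unadjusted p under 0.05.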
